A study of Mus musculus with 29 samples.

Results

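The mitochondrial carrier family SLC25 was followed in mouse hearts. Its members were taken as every gene of the count table whose symbol is Slc25a followed by a number, a choice by name that used no measured value. This gave 47 of the 20411 genes in the table, of which 40 had enough counts to be tested. All hearts came from wildtype BALB/c mice that had received an adeno-associated viral vector. Its Tbg promoter drives expression in hepatocytes, so the vector is a change made in the liver and read here in the heart. It carried either green fluorescent protein (GFP, the control) or REV-ERBα, a haem-binding nuclear receptor known as a repressor in the circadian clock. Tumour cells were given 10 days after the vector. They were C26, a mouse colon carcinoma line used as a model of cancer cachexia, and tumour-free mice received saline (PBS) instead. The PBS_GFP group held 4 hearts, PBS_REV-ERBa 5, C26_GFP 10 and C26_REV-ERBa 10, and every heart came from a different, individually numbered animal.

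SLC25 proteins are carriers of the inner mitochondrial membrane that exchange nucleotides, phosphate, acids, cofactors and metals between the cytosol and the matrix. The heart depends on them because the ATP that mitochondria make must leave through the ADP/ATP carriers, while phosphate, reducing equivalents and acylcarnitines must enter. A few relatives sit elsewhere, such as Slc25a46 in the outer membrane and Slc25a17 in peroxisomes, and several members have no agreed substrate.

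The libraries held 3207497 to 16853646 counts. Totals above 10000000 occurred in 2 PBS_GFP and 3 C26_GFP hearts and in none of the others. The 8 cardiomyocyte markers were all detected, with a summed level between 32452 and 48865 CPM (counts per 1000000 counts of scaled library size) over all hearts and group medians of 43018 in PBS_GFP, 44049 in PBS_REV-ERBa, 39477 in C26_GFP and 45184 in C26_REV-ERBa. Markers of atrial muscle were high in 1, 1, 3 and 4 hearts of these groups, in the same order. Summed macrophage markers had group medians of 154, 123, 215 and 191 CPM, and summed fibroblast markers of 770, 798, 1119 and 975 CPM. In whole hearts, fewer cells of a type and less RNA per cell cannot be told apart.

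Slc25a4 (the heart form of the ADP/ATP carrier, chromosome 8, 46207341 to 46211009, minus strand, mm10) had the highest level per length, 5465 ± 442 counts per kilobase scaled to library size (RPKM; SD, n = 29). It took 56.0% of the family's CPM on average. Slc25a3, the phosphate carrier that works beside it in ATP synthesis, followed with 747 ± 57.7 RPKM, and the ranges of these 2 genes over the 29 hearts did not overlap. Slc25a34, an orphan carrier, came next with 325 ± 104 RPKM, and its lowest and highest hearts stood at 202 and 553 RPKM. Slc25a11, the oxoglutarate/malate carrier, had 266 ± 24.5 RPKM and Slc25a5, the more widely expressed ADP/ATP carrier, 194 ± 18.9 RPKM. The ranges of Slc25a34 and Slc25a11 overlapped, and so did those of Slc25a11 and Slc25a5. Slc25a20, the carnitine/acylcarnitine carrier of fat oxidation, had 105 ± 12.8 RPKM, with its highest heart at 131 RPKM and thus below the lowest Slc25a5 value of 161 RPKM.

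Below these came Slc25a42, a coenzyme A carrier, with 86.8 ± 16.7 RPKM, the aspartate/glutamate carriers Slc25a12 and Slc25a13 with 57.0 ± 4.48 and 52.6 ± 13.3 RPKM, and Slc25a28, an iron carrier, with 45.6 ± 13.3 RPKM (SD, n = 29). From Slc25a20 down, the ranges of neighbouring genes in this order overlapped, except between Slc25a45 and the far lower Slc25a18. The other tested members ranged down to Slc25a53, at 0.359 ± 0.171 RPKM. Of the 7 members that were not tested, Slc25a31, Slc25a43, Slc25a2, Slc25a21, Slc25a41 and Slc25a54 had 149, 64, 62, 17, 8 and 4 counts over all libraries. Slc25a31 is the ADP/ATP carrier of the male germ line. Slc25a48 had no count in any library, which allows up to 0.935 CPM in the smallest library and 0.178 CPM in the largest (3 counts, counting error only).

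**Figure D1:**
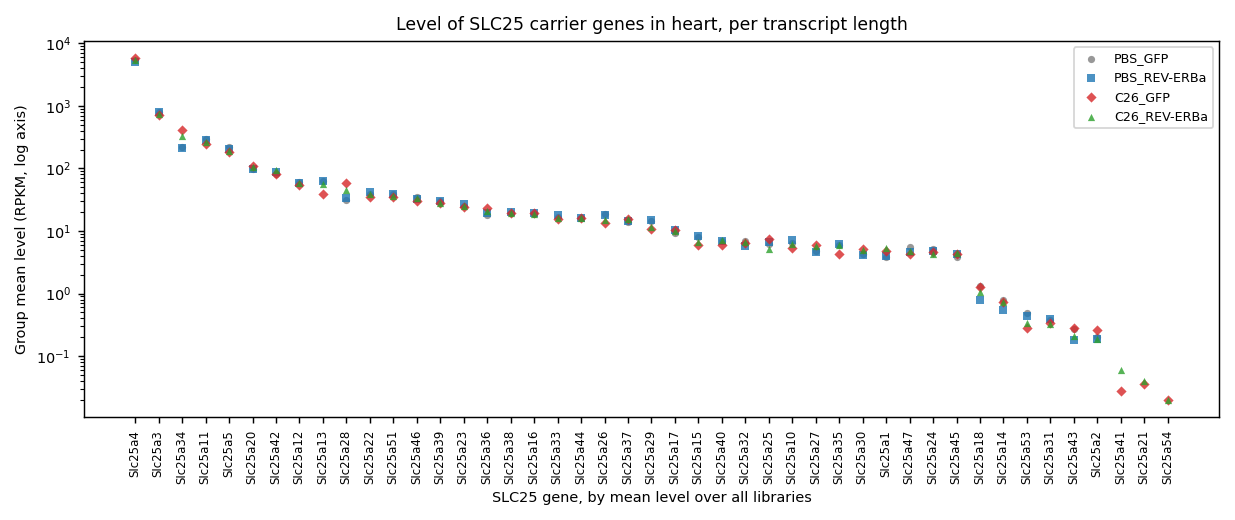
Mean level of 45 SLC25 genes (RPKM, log axis) in each of the 4 groups, with genes ordered by their mean over the 29 hearts. Groups whose mean is 0 cannot be drawn on a log axis, so Slc25a48 has no point. Slc25a21, Slc25a41 and Slc25a54 have none for the PBS groups. Slc25a4 lies highest in every group. Among the 10 genes with the highest mean levels, the groups separate most at Slc25a34, Slc25a13 and Slc25a28.

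The family as a whole made up between 0.988% and 1.21% of the counts of each heart. Its summed level was 10604 ± 427 CPM in PBS_GFP (SD, n = 4), 10185 ± 369 CPM in PBS_REV-ERBa (SD, n = 5), 11272 ± 526 CPM in C26_GFP (SD, n = 10) and 10671 ± 549 CPM in C26_REV-ERBa (SD, n = 10). Slc25a4 made up between 53.1% and 60.4% of the family's counts in single hearts.

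The tumour effect in GFP mice was the first comparison. The clearest changes with a tumour were higher Slc25a28, which imports iron into mitochondria (mitoferrin-2), higher Slc25a34, and lower Slc25a13, the aspartate/glutamate carrier also called citrin. The promoter windows of these 3 genes are shown because they carry the largest calls in either direction. Each runs 5′ to 3′ on the gene's strand from 250 bases before to 50 after the RefSeq start (GRCm38.p6), with CG pairs in capitals. Slc25a28 lies at chr19:43674832-43675131, minus strand, and its window holds 24 CG pairs. Slc25a34 lies at chr4:141623785-141624084, minus strand, with 1 CG pair. Slc25a13 lies at chr6:6217124-6217423, minus strand, with 17 CG pairs and an E-box, CACGTG, beginning 125 bases before the start.
Slc25a28: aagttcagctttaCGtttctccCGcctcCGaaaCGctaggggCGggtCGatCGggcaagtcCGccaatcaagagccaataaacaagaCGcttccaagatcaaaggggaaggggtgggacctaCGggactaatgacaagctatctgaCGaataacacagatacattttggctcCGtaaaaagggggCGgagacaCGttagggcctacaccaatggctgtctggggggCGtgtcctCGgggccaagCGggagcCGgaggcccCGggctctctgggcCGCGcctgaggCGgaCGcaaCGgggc
Slc25a34: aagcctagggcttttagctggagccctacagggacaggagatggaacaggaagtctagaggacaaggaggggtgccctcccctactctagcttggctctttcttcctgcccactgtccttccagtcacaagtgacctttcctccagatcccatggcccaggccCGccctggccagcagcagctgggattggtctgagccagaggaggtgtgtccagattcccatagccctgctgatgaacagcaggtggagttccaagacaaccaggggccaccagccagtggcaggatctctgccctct
Slc25a13: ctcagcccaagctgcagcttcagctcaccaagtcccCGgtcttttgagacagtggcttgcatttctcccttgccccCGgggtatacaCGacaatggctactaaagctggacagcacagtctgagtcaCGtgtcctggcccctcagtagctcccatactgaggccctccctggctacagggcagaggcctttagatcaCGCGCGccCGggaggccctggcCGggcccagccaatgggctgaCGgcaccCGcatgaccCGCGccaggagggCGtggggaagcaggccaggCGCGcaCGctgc
A RefSeq promoter window was found for 36 of the 47 members. The median over their 46 windows was 15 CG pairs and 59.3% GC. Over the 32851 windows of all 27025 genes with a window it was 7 and 52.7%. On both strands, the E-box CACGTG, the motif of the clock activators and of MYC, was present in any window of 7 of the 36 members (19.4%) and in 8.09% of all genes. The 7 were Slc25a1, Slc25a13, Slc25a14, Slc25a15, Slc25a31, Slc25a33 and Slc25a36. The STAT motif TTCNNNGAA was found in 2 members (5.56%, against 9.55% of all genes), Slc25a36 and Slc25a54. The motifs TCAAGGTCA (ERR, 0.466% of all genes) and TGTTTAC (FOXO, 4.05%) had no match in the members' windows, nor had the motifs of NRF1 (1.07%) and of the glucocorticoid receptor (0.537%).

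With a tumour, 13 of the 40 tested carriers passed the test in GFP mice, 3 higher and 10 lower. That is 32.5% of the members, and 28.2% of all 12928 genes tested passed. By direction, 14.2% of all genes were higher and 14.0% lower. The median change of the members was −0.12 on the log2 scale, against 0.00 for all genes, and 24 members lay below 0. The groups did not overlap for 10 members, 2 higher and 8 lower, while 5.65% of all genes lay higher and 6.31% lower without overlap. Among the cardiomyocyte markers, 4 of 8 were lower and 1 higher in the same comparison, and 2 of 5 macrophage and 2 of 5 fibroblast markers were higher; their part in the carrier results was not tested. Without the 5 libraries above 10000000 counts, which leave 2 against 7 hearts, 7 carriers passed, 2 higher and 5 lower.

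Of the 4 carriers of iron and glutathione, 1 rose and 1 fell, where 14.2% of all genes were higher and 14.0% lower. With roles this small, a count of calls says little about the role. In the PBS_GFP hearts Slc25a28 stood at 51.1, 46.6, 50.2 and 43.9 CPM. In the C26_GFP hearts the lowest was at 61.5, the median at 91.0 and the highest at 112 CPM. Every tumour-bearing heart thus lay above every tumour-free one. Its change was 0.90 ± 0.14 on the log2 scale (SE, edgeR adjusted p = 3.33e-05), or 1.86-fold. Slc25a37 (mitoferrin-1, best known from red cell precursors) did not pass, with 59.0 ± 9.51 CPM in PBS_GFP (SD, n = 4) and 63.9 ± 10.5 CPM in C26_GFP (SD, n = 10). The summed erythroid markers ranged from 14.3 to 34.4 CPM in PBS_GFP (median 17.2) and from 7.05 to 104 CPM in C26_GFP (median 32.9). Nearly all of this was Alas2, the haem synthesis enzyme of red cell precursors, and the globin genes measured were at or near 0 in every group. C26_GFP replicate 7 had the highest sum and also the highest Slc25a37, at 90.6 CPM; the part of red cells in the Slc25a37 level was not tested.

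Slc25a40, one of a pair of glutathione carriers, was at 18.6, 21.0, 20.1 and 20.1 CPM in the PBS_GFP hearts. In C26_GFP it had 15.6 as its lowest, 16.3 as its median and 18.6 CPM as its highest value. The groups did not overlap, although the highest tumour-bearing heart (18.57 CPM) and the lowest tumour-free one (18.64 CPM) all but touched. Its change was −0.25 ± 0.09 (adjusted p = 0.0338). The call was lost when any one of PBS_GFP replicates 2, 3 or 4 or C26_GFP replicates 1, 2 or 3 was left out (adjusted p between 0.0510 and 0.131), with DESeq2 (adjusted p = 0.0564), without a filter on low counts (0.0639), without the deep libraries (0.129) and without the hearts with high atrial markers (0.120). Slc25a39, its partner, changed by −0.13 ± 0.08 and did not pass (adjusted p = 0.238).

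Among the orphan and lipid carriers Slc25a34 rose. This gene was at 568, 573, 613 and 616 CPM in PBS_GFP, whereas the C26_GFP hearts had a lowest value of 645, a median of 1095 and a highest of 1484 CPM. All 10 tumour-bearing hearts exceeded the 4 controls, and they were spread widely. The change was 0.90 ± 0.16 (adjusted p = 0.000153), or 1.87-fold. Slc25a35, its close relative, had 5.48 ± 1.36 RPKM over all hearts (SD, n = 29). It was at 11.9, 10.8, 10.3 and 10.2 CPM in PBS_GFP and at 6.60, 7.18 and 11.97 CPM (lowest, median, highest) in C26_GFP. The groups overlapped through 1 tumour-bearing heart, replicate 6. Slc25a35 fell by 0.48 ± 0.16 (adjusted p = 0.0294). The call was lost without PBS_GFP replicate 1 (adjusted p = 0.124), without PBS_GFP replicate 2 (0.0641), without the deep libraries (0.161) and without the hearts with high atrial markers (0.126).

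The value of Slc25a35 is uncertain, because its exons share 1151 bases with Rangrf on the opposite strand. The library kit keeps strand, but the sources used here do not give the strand setting of the counting. Rangrf, whose product binds the nuclear transport factor Ran, had 26.2 ± 2.20 CPM in PBS_GFP (SD, n = 4) and 18.9 ± 3.22 CPM in C26_GFP (SD, n = 10), a change of −0.46 ± 0.12 (adjusted p = 0.00485). The 1151 bases were taken over all annotated exons. How many of them lie within the 1795 bases counted for Slc25a35 was not determined. Changes of Slc25a35 and of Rangrf may thus not be separable.

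Slc25a46, an outer membrane protein that shapes mitochondrial networks, was at 145, 145, 149 and 163 CPM in PBS_GFP. In C26_GFP its lowest, median and highest values were 123, 132 and 140 CPM, so that the groups did not overlap. It fell by 0.19 ± 0.05 (adjusted p = 0.00392), a small change between tight groups. Its exons share 383 bases with B930094E09Rik on the opposite strand. Slc25a53, which has few counts, had the most negative estimate of all members, −0.78 ± 0.33, and did not pass (adjusted p = 0.0794).

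Among the 5 carriers of the malate-aspartate shuttle and of glutamate, 2 fell and none rose. The shuttle carries reducing equivalents from cytosolic NADH into mitochondria. Of all genes tested, 14.0% were lower and 14.2% higher. Slc25a13 was at 215, 198, 202 and 185 CPM in PBS_GFP. In C26_GFP it was at 75.2 in the lowest heart, 121 at the median and 162 CPM in the highest, below every control. The change was −0.72 ± 0.15 (adjusted p = 0.000606), to 0.608 of the control level. Slc25a12, the second aspartate/glutamate carrier and the one typical of muscle and brain, had 176 ± 9.97 CPM in PBS_GFP (SD, n = 4) and 160 ± 12.1 CPM in C26_GFP (SD, n = 10), and its change of −0.14 ± 0.07 did not pass (adjusted p = 0.102).

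Slc25a11, which exchanges oxoglutarate for malate in the same shuttle, was at 561, 509, 571 and 520 CPM in PBS_GFP. The C26_GFP hearts had 426, 450 and 507 CPM as lowest, median and highest values, all under the lowest control. The change was −0.24 ± 0.06 (adjusted p = 0.00399). Its exons share 189 bases with Rnf167 on the opposite strand, and Rnf167 rose by 0.27 ± 0.08 (adjusted p = 0.00903), the other direction. The glutamate carriers Slc25a22 and Slc25a18 did not pass.

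Among the 6 tested carriers of ADP, ATP and phosphate, 1 fell and none rose, near the 14.0% of all genes that were lower. Slc25a5 was at 299, 285, 275 and 296 CPM in PBS_GFP, and at 218, 236 and 280 CPM (lowest, median, highest) in C26_GFP. The highest tumour-bearing heart lay above the lowest control, so the groups overlapped. It fell by 0.27 ± 0.06 (adjusted p = 0.00252). Of its stretches of 50 bases, 46.6% also occur in transcripts of 9 other genes, so its count may be split or incomplete. Slc25a4 had 5953 ± 322 CPM in PBS_GFP (SD, n = 4) and 6481 ± 433 CPM in C26_GFP (SD, n = 10), and its change of 0.12 ± 0.06 did not pass (adjusted p = 0.138). Slc25a3 went from 1202 ± 66.2 to 1077 ± 67.1 CPM, a change of −0.16 ± 0.06 that did not pass (adjusted p = 0.0558). It passed with upper quartile scaling, with DESeq2, with voom and without C26_GFP replicate 6 or 7.

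Cofactor and nucleotide carriers gave 1 rise and 3 falls among 9 members (14.2% of all genes were higher and 14.0% lower). Slc25a26, which brings S-adenosylmethionine to the matrix for methylation, was at 37.1, 33.6, 30.4 and 33.4 CPM in PBS_GFP and at 17.5, 23.4 and 29.5 CPM (lowest, median, highest) in C26_GFP. The groups did not overlap, and the change was −0.51 ± 0.11 (adjusted p = 0.00118). It did not pass without the deep libraries (adjusted p = 0.0676). Lrig1, which shares 144 exonic bases with it on the opposite strand, changed by −0.05 ± 0.09 (adjusted p = 0.730).

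Slc25a51, the NAD carrier, fell by 0.19 ± 0.05 (adjusted p = 0.00689) from values between 174 and 177 CPM to values between 140 and 172 CPM; without the hearts with high atrial markers it did not pass (adjusted p = 0.0764).

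Slc25a36, a pyrimidine nucleotide carrier, rose by 0.37 ± 0.12 (adjusted p = 0.0243). The PBS_GFP hearts were within 55.1 to 57.3 CPM, the C26_GFP hearts within 54.6 to 103 CPM, and the groups overlapped. This call was lost without PBS_GFP replicate 1 (adjusted p = 0.0682), 2 (0.0579) or 3 (0.0556), without the deep libraries (0.137) and with the replicate number as a block (0.173). Among carriers of amino acids and acylcarnitines 1 of 7 fell, near the 14.0% of all genes that were lower. This was the ornithine carrier Slc25a15. It changed by −0.43 ± 0.14 (adjusted p = 0.0228), with 27.8 ± 1.70 CPM in PBS_GFP (SD, n = 4) and 20.5 ± 5.04 CPM in C26_GFP (SD, n = 10), and the groups overlapped. Its call was lost without PBS_GFP replicate 1 (0.0650), 2 (0.0730) or 3 (0.0512), without the deep libraries (0.0648) or the hearts with high atrial markers (0.104), in a fit of the compared groups alone (0.0601) and with the block (0.0775), all as adjusted p.

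No member passed among the citrate, dicarboxylate and oxodicarboxylate carriers (2 tested) or among the relatives of uncoupling proteins (3 tested). Of all genes, 28.2% passed. Slc25a20 had 176 ± 7.28 CPM in PBS_GFP (SD, n = 4) and 194 ± 24.5 CPM in C26_GFP (SD, n = 10), with a change of 0.14 ± 0.10 (adjusted p = 0.297). Slc25a10, the dicarboxylate carrier, was lower without overlap but did not pass, at −0.26 ± 0.12 (adjusted p = 0.109). Slc25a11, Slc25a13, Slc25a28, Slc25a34, Slc25a46 and Slc25a5 passed in this comparison under all 10 alternatives and with each of the 14 hearts left out in turn.

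**Figure D2:**
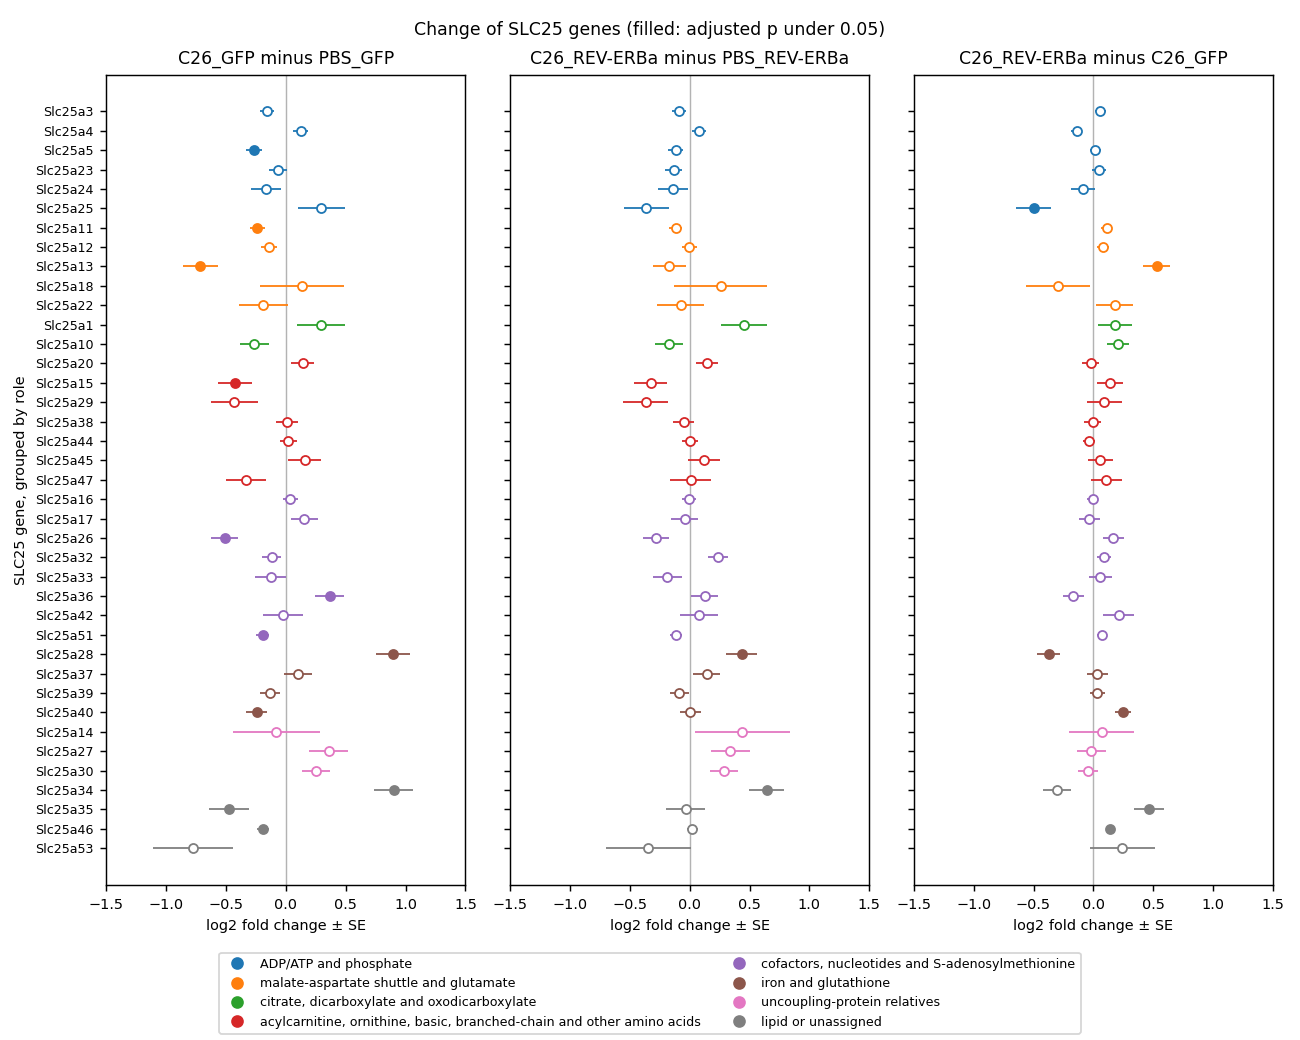
Log2 fold change ± SE of 39 of the tested SLC25 genes, grouped by role, for the tumour effect with the GFP vector (left), the tumour effect with the REV-ERBα vector (middle) and REV-ERBα against GFP with a tumour (right); filled points passed at an adjusted p under 0.05. The left panel has 3 filled points to the right of 0 and 9 to the left, the middle panel 2 and 0, and the right panel 4 and 2; the left and right panels share the C26_GFP hearts.

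The second comparison asked how the REV-ERBα vector changed the hearts of tumour-bearing mice. It shares the C26_GFP hearts with the first, so a heart that is low there pushes the 2 comparisons in opposite directions, and their values are given side by side only. Of the 40 carriers, 7 passed, 5 higher and 2 lower with REV-ERBα. That is 17.5% of the members, while 7.20% of all genes passed, 3.75% higher and 3.45% lower. No member was higher or lower without overlap (0.0155% and 0.00774% of all genes were). In the same comparison 1 of 8 cardiomyocyte markers was higher, and 1 of 5 fibroblast and 1 of 5 macrophage markers were lower; their part was not tested. The count rests on single hearts: it was 1 without C26_REV-ERBa replicate 7, 2 without C26_GFP replicate 10, and 4 without C26_GFP replicate 7 or C26_REV-ERBa replicate 1. In a fit of only these 20 hearts it was 1, Slc25a13.

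Slc25a13 was higher with REV-ERBα. Against the 75.2 to 162 CPM of the C26_GFP hearts, the C26_REV-ERBa hearts had 92.8 as the lowest, 193 as the median and 204 CPM as the highest value. In all, 7 of the 10 lay above every C26_GFP heart, within 189 to 204 CPM, and replicate 9 was the lowest. Its change was 0.53 ± 0.11 (adjusted p = 0.0119), and it passed under all 10 alternatives and without each of the 20 hearts. In the first comparison the same gene changed by −0.72 ± 0.15.

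Slc25a28 was lower with REV-ERBα, with 57.0, 62.3 and 100 CPM as lowest, median and highest values. The groups overlapped, and the change was −0.37 ± 0.10 (adjusted p = 0.0252), against 0.90 ± 0.14 in the first comparison. The call was lost when C26_GFP replicate 7 or 10 or C26_REV-ERBa replicate 1, 7 or 10 was left out (adjusted p between 0.0525 and 0.0645), in a fit of the compared groups alone (0.0665) and with the block (0.0702). The heart with the lowest Slc25a13 in each tumour-bearing group, C26_GFP replicate 10 and C26_REV-ERBa replicate 9, also had the highest Slc25a28 of its group. Slc25a34 was not the highest of its group in either heart, at 1163 CPM in C26_GFP replicate 10 and 715 CPM in C26_REV-ERBa replicate 9. In C26_GFP replicate 6, Slc25a13 was the highest and Slc25a28 and Slc25a34 were the lowest of the group. Likeness of these genes over all hearts was not tested.

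Slc25a40 was higher by 0.25 ± 0.07 (adjusted p = 0.0253), with 14.7, 19.8 and 23.3 CPM in C26_REV-ERBa as lowest, median and highest. It missed the threshold without C26_REV-ERBa replicate 7 (adjusted p = 0.0632) and in a fit of these 20 hearts (0.0521). Slc25a46 was higher by 0.14 ± 0.04 (adjusted p = 0.0255), at 130, 146 and 154 CPM, and missed it without C26_GFP replicate 10 (0.0544), without C26_REV-ERBa replicate 7 (0.0566), without the filter on low counts (0.0535), in the fit of these hearts (0.0546) and with the block (0.0574). In both genes the C26_REV-ERBa median lay above the highest C26_GFP heart, at 18.6 CPM for Slc25a40 and 140 CPM for Slc25a46.

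Slc25a35 was higher by 0.46 ± 0.13 (adjusted p = 0.0285), at 7.34, 10.8 and 14.4 CPM in C26_REV-ERBa. Its opposite-strand neighbour Rangrf changed by 0.29 ± 0.09 (adjusted p = 0.0505). The Slc25a35 call was lost without C26_GFP replicate 10 (0.0592), without C26_REV-ERBa replicate 7 (0.0691), without the hearts with high atrial markers (0.188) and in the fit of these hearts (0.0520).

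Slc25a25, a calcium-sensitive carrier of ATP-Mg and phosphate, was lower with REV-ERBα. It ranged from 13.6 to 32 CPM in C26_GFP, with a median of 21.4, and from 12.5 to 20.9 CPM in C26_REV-ERBa, with a median of 13.9. The change was −0.50 ± 0.15 (adjusted p = 0.0394). Leaving out any one of 11 hearts ended the call (C26_GFP replicates 2, 3, 7, 8 and 10, and C26_REV-ERBa replicates 1, 3, 6, 7, 8 and 10, with adjusted p between 0.0542 and 0.0827), as did voom (0.0879), the fit of these hearts (0.0699) and the block (0.0914). Its exons share 379 bases with Naif1, which changed by 0.00 ± 0.11 (adjusted p = 0.991). Slc25a4 had 5880 ± 351 CPM (SD, n = 10) with REV-ERBα against 6481 ± 433 CPM with GFP (SD, n = 10), and its change of −0.14 ± 0.05 did not pass (adjusted p = 0.0583). It passed with DESeq2, with voom and without any one of C26_GFP replicates 6 and 9 and C26_REV-ERBa replicates 6 and 9. Slc25a13, Slc25a28, Slc25a40, Slc25a46 and Slc25a35 passed in both comparisons.

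**Figure D3:**
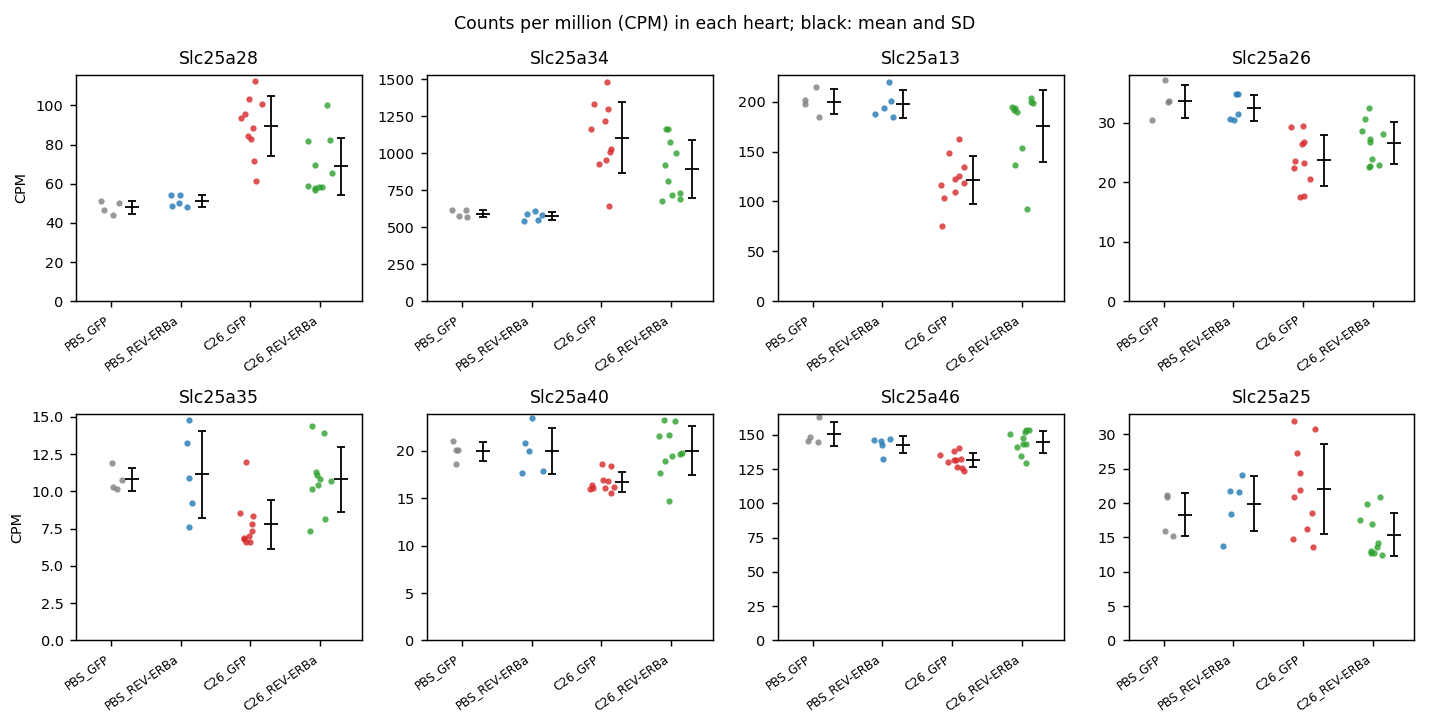
CPM of 8 SLC25 genes in each heart, by group, with the mean and SD in black. Slc25a28 and Slc25a34 lie higher in all C26_GFP hearts than in all PBS_GFP hearts, Slc25a13 and Slc25a26 lie lower there, and 7 of 10 C26_REV-ERBa hearts lie above every C26_GFP heart for Slc25a13.

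In mice with the REV-ERBα vector, the tumour was compared with saline in hearts that enter neither arm of the first comparison. There 2 of 40 carriers passed, both higher (5% of the members, while 7.23% of all genes passed, 4.05% higher and 3.19% lower). Slc25a34 was at 580, 543, 607, 591 and 548 CPM in PBS_REV-ERBa, and at 674, 868 and 1166 CPM (lowest, median, highest) in C26_REV-ERBa. No heart overlapped, and the rise was 0.64 ± 0.15 (adjusted p = 0.00749). Slc25a28 was at 54.3, 50.1, 54.3, 48.7 and 48.0 CPM in PBS_REV-ERBa and rose by 0.43 ± 0.13 (adjusted p = 0.0391), also without overlap. These 2 members were higher without overlap, as were 1.10% of all genes, and none was lower without overlap (0.774%).

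The Slc25a28 call in these mice was lost when any of 9 hearts was left out, namely each of the 5 PBS_REV-ERBa hearts and C26_REV-ERBa replicates 2, 5, 6 and 9 (adjusted p between 0.0545 and 0.103). It was also lost without the hearts with high atrial markers (0.105) and with the block (0.150). The Slc25a34 call passed under all 10 alternatives and without each of the 15 hearts. Slc25a13 had 198 ± 14.0 CPM in PBS_REV-ERBa (SD, n = 5) and 176 ± 36.4 CPM in C26_REV-ERBa (SD, n = 10), and its change of −0.17 ± 0.14 did not pass (adjusted p = 0.492). Slc25a26 changed by −0.28 ± 0.11 and did not pass either (adjusted p = 0.112). Across the 40 members, the tumour effects in the 2 vector settings had a Pearson correlation of 0.74 and a Spearman correlation of 0.68, and 30 had the same sign. Over all 12928 tested genes these were 0.54, 0.63 and 9474 genes. Genes are not independent replicates, and the 2 comparisons share no heart but the same fitted model.

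Whether the tumour effect differed between the vectors was tested directly as an interaction. No carrier passed edgeR's test of it, and neither did any other gene tested (0.00% of all genes). Among the carriers, 7 of 40 had an unadjusted p under 0.05 (10.5% of all genes did), and DESeq2 and voom also called 0 carriers. For Slc25a13 the estimate was 0.55 ± 0.21 (adjusted p = 0.370), for Slc25a28 −0.46 ± 0.19 (adjusted p = 0.398) and for Slc25a46 0.21 ± 0.07 (adjusted p = 0.301). A call with GFP and none with REV-ERBα is therefore no shown difference between the vectors. In tumour-free mice the REV-ERBα vector changed 0 carriers by edgeR (0.00% of all genes), DESeq2 or voom, and 1 of 40 had an unadjusted p under 0.05, against 4.10% of all genes. That gene was Slc25a32, a carrier of folate and FAD. It was at 19.5, 20.5, 16.6 and 24.4 CPM in PBS_GFP and 18.4, 17.7, 16.2, 15.3 and 16.5 CPM in PBS_REV-ERBa, with overlap, a change of −0.27 ± 0.10 and an adjusted p of 1. Slc25a13 differed by −0.02 ± 0.17 and Slc25a28 by 0.09 ± 0.16 between the same groups.

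**Figure D4:**
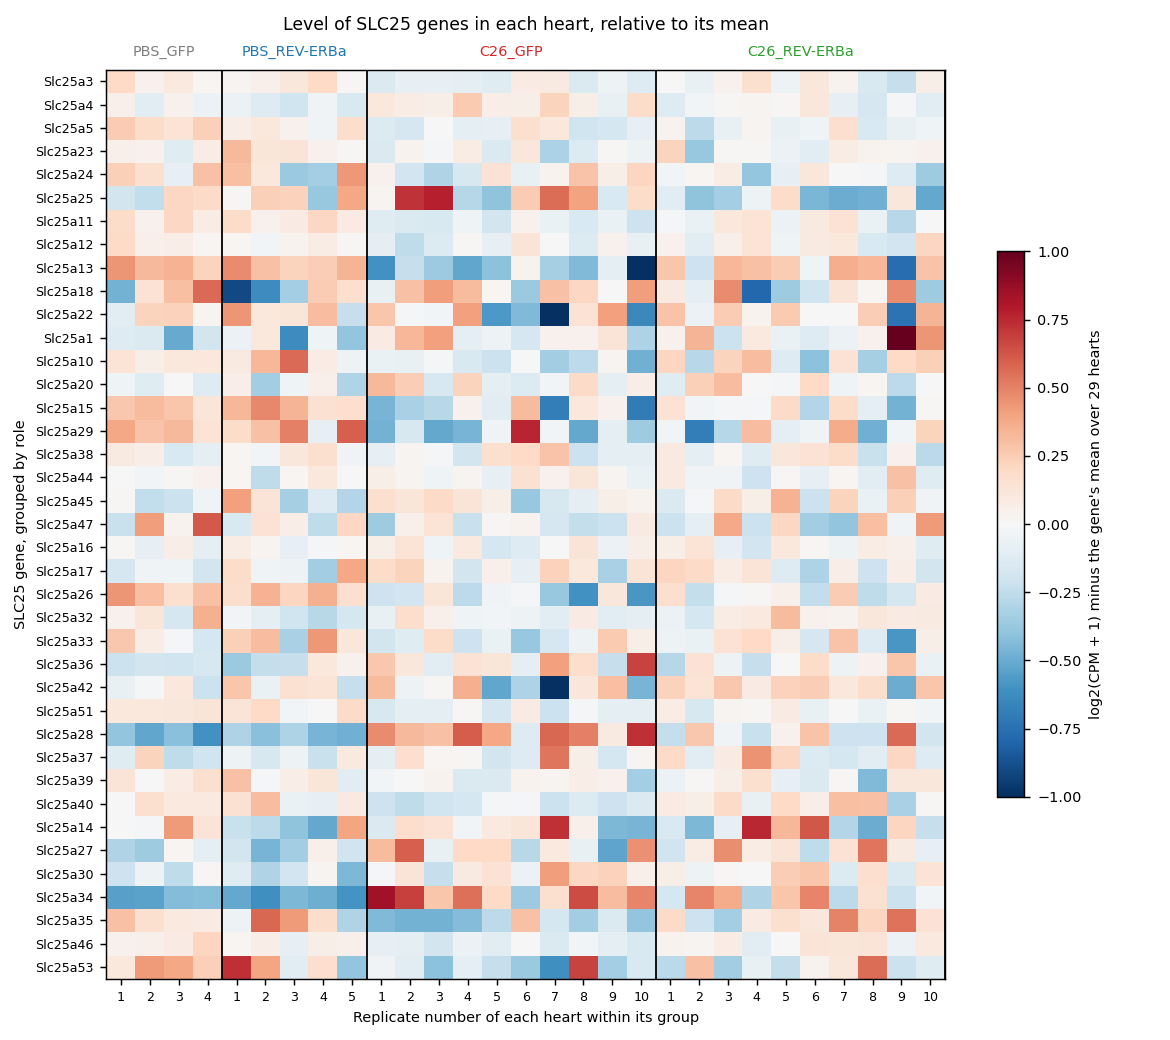
Level of 39 of the tested SLC25 genes in each of the 29 hearts, as log2(CPM + 1) minus the gene's mean over all hearts, with genes grouped by role and hearts by group; values beyond −1 or 1 take the end colours. Slc25a28 and Slc25a34 are low in all 9 tumour-free hearts, Slc25a13 is lowest in C26_GFP replicate 10, and Slc25a1 is highest in C26_REV-ERBa replicate 9.

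Close relatives were compared within each heart as the log2 ratio of their counts, a measure that library scaling does not touch. The 6 pairs were chosen after their values were seen. The 12 tests were two-sided permutations of the group labels, adjusted together. That adjustment does not allow for the choice of the pairs. The ratios also use the same hearts as the single-gene tests, so their p-values are no separate support for those calls. Slc25a13 to Slc25a12 had a log2 ratio of 0.18 ± 0.04 in PBS_GFP (SD, n = 4) and −0.42 ± 0.29 in C26_GFP (SD, n = 10). The difference of −0.60 had an exact permutation p of 0.000999, the smallest that 1001 arrangements can give, and an adjusted p of 0.00599; all 10 tumour-bearing hearts lay below the 4 controls. With REV-ERBα the ratio in tumour-bearing hearts was 0.03 ± 0.30 (SD, n = 10), higher by 0.45 (permutation p = 0.00351, adjusted p = 0.00842).

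Slc25a28 to Slc25a37, the 2 mitoferrins, moved from −0.29 ± 0.26 in PBS_GFP (SD, n = 4) to 0.48 ± 0.25 in C26_GFP (SD, n = 10). This difference of 0.77 had an adjusted p of 0.00599 by exact permutation. The ratio was 0.07 ± 0.36 in C26_REV-ERBa (SD, n = 10), a difference of −0.41 (permutation, adjusted p = 0.0150). Slc25a5 to Slc25a4, the 2 ADP/ATP carriers, moved from −4.37 ± 0.10 (SD, n = 4) to −4.76 ± 0.13 (SD, n = 10), a difference of −0.39 (exact permutation, adjusted p = 0.00799), and was −4.60 ± 0.15 with REV-ERBα (SD, n = 10), higher by 0.16 (permutation, adjusted p = 0.0317). The last of these calls was lost without any one of C26_GFP replicates 1, 2, 4, 8 and 10 and C26_REV-ERBa replicates 1, 7 and 10 (adjusted p between 0.0511 and 0.0605).

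Slc25a35 to Slc25a34 moved from −5.77 ± 0.15 in PBS_GFP (SD, n = 4) to −7.13 ± 0.58 in C26_GFP (SD, n = 10), a difference of −1.36 (exact permutation, adjusted p = 0.00842), and was −6.36 ± 0.56 in C26_REV-ERBa (SD, n = 10), higher by 0.77 (permutation, adjusted p = 0.0150). The overlap of Slc25a35 with Rangrf applies to it. Slc25a36 to Slc25a33, the pyrimidine nucleotide carriers, differed by 0.45 with the tumour (exact permutation, adjusted p = 0.0573) and by −0.20 with REV-ERBα (permutation, adjusted p = 0.257). Slc25a40 to Slc25a39 differed by −0.12 (exact permutation, adjusted p = 0.257) and 0.23 (permutation, adjusted p = 0.0804). Neither pair passed. Without the hearts with high atrial markers, the REV-ERBα differences no longer passed for Slc25a28 to Slc25a37 (adjusted p = 0.0853), Slc25a5 to Slc25a4 (0.0853) and Slc25a35 to Slc25a34 (0.118), whereas Slc25a36 to Slc25a33 passed in both comparisons (0.0262 each) and Slc25a40 to Slc25a39 for REV-ERBα (0.0262). Without the deep libraries, which leave 2 against 7 hearts, the tumour difference of Slc25a13 to Slc25a12 was still −0.60, with an adjusted p of 0.0741.

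**Figure D5:**
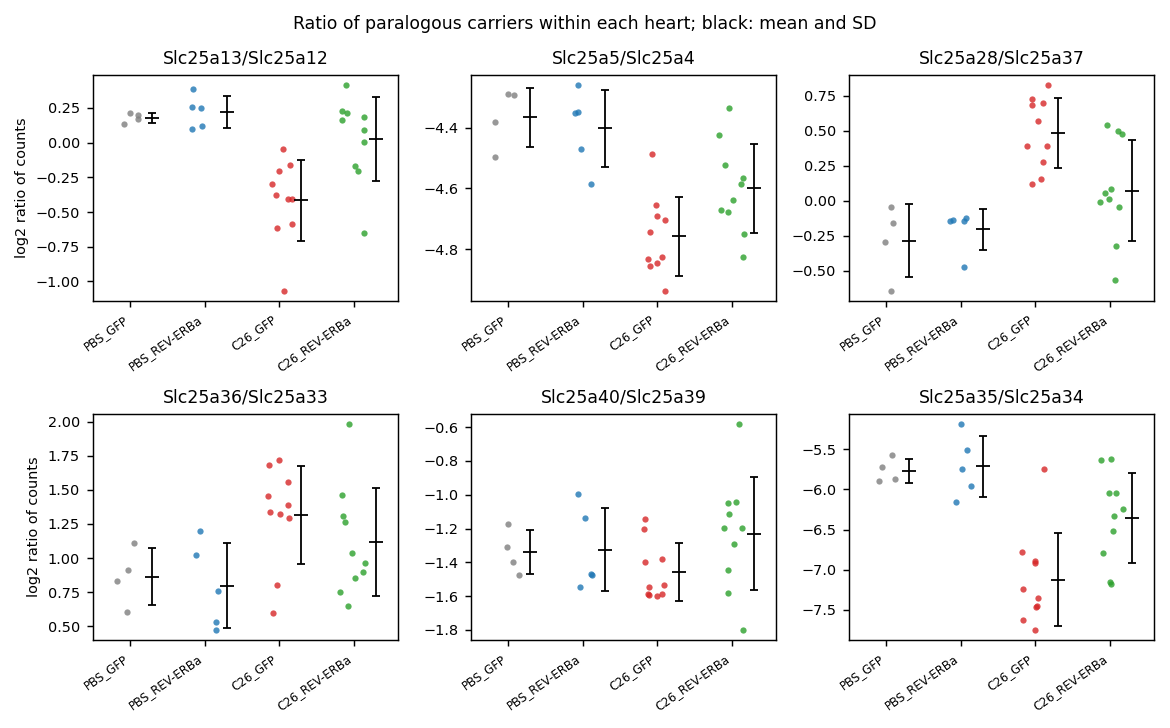
Log2 ratio of the counts of 6 pairs of related SLC25 genes in each heart, by group, with the mean and SD in black; each panel has its own axis. For Slc25a13 to Slc25a12 all C26_GFP hearts lie below all PBS_GFP hearts, and for Slc25a28 to Slc25a37 all lie above them.

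Other genes of mitochondrial transport were read from lists chosen with earlier results of these data known. Of 4 tested family members with other symbols, 1 rose and 1 fell with the tumour in GFP mice. Of all genes, 14.2% were higher and 14.0% lower there. Ucp2, an uncoupling protein relative found in many cell types including macrophages, was at 42.3 ± 3.44 CPM in PBS_GFP (SD, n = 4) and 74.7 ± 17.9 CPM in C26_GFP (SD, n = 10), and rose by 0.81 ± 0.19 (adjusted p = 0.00162). It also rose in REV-ERBα mice, by 0.73 ± 0.18 (adjusted p = 0.0116). The summed macrophage markers given above were also higher in median, and their part in the Ucp2 value was not tested. Mtch2, an outer membrane relative that inserts proteins, fell by 0.33 ± 0.09 (adjusted p = 0.00689) and was higher with REV-ERBα in tumour-bearing mice by 0.23 ± 0.07 (adjusted p = 0.0401). Ucp3, the muscle form, did not pass and ranged from 3.64 to 213 CPM within C26_GFP.

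Carriers reach the inner membrane through the TOM complex, small TIM chaperones and the TIM22 complex. Of 16 import genes, 5 fell and none rose with the tumour in GFP mice (median −0.22, against 0.00 for all genes). Of all genes tested, 14.0% were lower and 28.2% passed in either direction. Timm22, the pore that inserts carriers, fell by 0.74 ± 0.12 (adjusted p = 4.29e-05), with 51.7 ± 3.88 CPM in PBS_GFP (SD, n = 4) and 30.8 ± 5.43 CPM in C26_GFP (SD, n = 10). Tomm5 fell by 0.65 ± 0.12 (adjusted p = 0.000169) and the central receptor Tomm22 fell by 0.50 ± 0.07 (adjusted p = 1.53e-05). Tomm70a, the receptor that recognises carriers, fell by 0.31 ± 0.05 (adjusted p = 6.82e-05). With REV-ERBα in tumour-bearing mice 1 of the 16 passed, Tomm70a, higher by 0.14 ± 0.04 (adjusted p = 0.0330). Of all genes, 3.75% were higher there and 7.20% passed in either direction. None of the 16 passed between tumour and saline with the REV-ERBα vector, where 7.23% of all genes did. EdgeR gave Timm22 −0.35 ± 0.11 there (adjusted p = 0.0591).

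Of 21 tested genes of other mitochondrial transport, 3 rose and 6 fell with the tumour in GFP mice, where 14.2% of all genes rose and 14.0% fell. Abcb10, a transporter tied to haem synthesis, fell by 0.36 ± 0.07 (adjusted p = 0.000291), and Mpc2, a subunit of the pyruvate carrier, fell by 0.38 ± 0.09 (adjusted p = 0.00196). Sfxn3, a serine transporter, rose by 0.50 ± 0.11 (adjusted p = 0.00160). With REV-ERBα in tumour-bearing mice 2 of the 21 were higher, against 3.75% of all genes, among them Abcb10 by 0.20 ± 0.05 (adjusted p = 0.0227).

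Among 12 enzymes that share a shuttle with a carrier, 4 fell with the tumour in GFP mice and none rose. Of all genes tested, 14.0% were lower there and 28.2% passed in either direction. Ckmt2, the mitochondrial creatine kinase of muscle that works beside the ADP/ATP carriers, fell by 0.47 ± 0.10 (adjusted p = 0.000625). The malate dehydrogenases of the malate-aspartate shuttle fell too. Cytosolic Mdh1 fell by 0.32 ± 0.08 (adjusted p = 0.00235) and mitochondrial Mdh2 fell by 0.23 ± 0.07 (adjusted p = 0.0160). The aminotransferases on the same list did not pass. Got1 changed by 0.07 ± 0.07 (adjusted p = 0.520) and Got2 by −0.14 ± 0.05 (adjusted p = 0.0643). Gpd2, the mitochondrial enzyme of the glycerol phosphate shuttle, fell by 0.35 ± 0.11 (adjusted p = 0.0204). Gpd1 on the same list had an estimate in the other direction, 0.65 ± 0.25, and did not pass (adjusted p = 0.0529). Gpd2 was the 1 of 12 that was higher with REV-ERBα in tumour-bearing mice, by 0.29 ± 0.09 (adjusted p = 0.0418). Of all genes, 3.75% were higher in that comparison and 7.20% passed in either direction. None of the 12 passed between tumour and saline with the REV-ERBα vector, where 7.23% of all genes did. The list's median for the tumour in GFP mice was 0.05, the opposite sign to the 4 that passed.

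The members lie on 19 chromosomes, 4 of them on X, and 4 adjacent pairs occur. Slc25a29 and Slc25a47 are 162 bases apart on chromosome 12, and the others are Slc25a41 and Slc25a23, Slc25a54 and Slc25a24, and Slc25a43 and Slc25a5, with gaps of 2056, 6461 and 18448 bases. In each of the last 3 pairs 1 gene was too low to test. Slc25a29, a carrier of basic amino acids, and Slc25a47, a carrier best known from liver, changed by −0.43 ± 0.19 and −0.33 ± 0.17 with the tumour in GFP mice and did not pass (adjusted p = 0.0959 and 0.142).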

How the data were processed

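RNA of 29 hearts was sequenced with a stranded kit without selection of polyadenylated RNA, per the labels' protocols. The deposited file is a table of raw counts, with 1 row for each RefSeq gene. STAR 2.4.2a, DESeq2 1.24.0 and the mm10 build are listed, without roles, in the submitters' processing notes, and no source used here gives the strand setting of the counting. Of the columns with per-sample values, 1 fitted no sample's labels and was left out.

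The tools were edgeR 4.0.16 and limma 3.58.1 under R 4.3.3. The filter filterByExpr, with a minimum count of 10 and a minimum total of 15, passed 12928 genes. Libraries were scaled by TMM, and 1 quasi-likelihood model with a mean per group was fitted to all 29. The threshold was 0.05 for p adjusted by Benjamini-Hochberg over all 12928. The standard error is the log2 fold change divided by the square root of F. CPM use the scaled library sizes, and RPKM divide them by the deposited counted length. Ratios used counts plus 0.5, with exact permutation or 100000 resamples. The model was also run on simulated data with changes larger than many called here, and that run is not used as support. No pair of libraries in a group agreed within sampling noise (106 pairs, with a chi-square of at least 2.85 per degree of freedom). With 3207497 to 16853646 counts per library, members under 1 CPM have few counts.

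Named members were those that passed in both of the first 2 comparisons, the 6 with the smallest p in each of the first 4 (mean of at least 5 CPM), the 3 with the highest level per length, and Slc25a3, Slc25a4, Slc25a5, Slc25a11, Slc25a12, Slc25a13 and Slc25a20. From each list of other genes up to 4 with the smallest p were named. Other members and listed genes are named to account for calls or relatives, after their values were seen. A few single results are not reported here. Members and lists were chosen with earlier results of these data known. Alternatives were RLE and upper quartile scaling, the DESeq2 1.42.0 Wald test, voom with sample weights, other filters, a replicate block, only the compared groups, leaving out the 5 libraries above 10000000 counts, the 9 with mean atrial markers above 5 log2 CPM, or each library in turn. Overlaps and shared stretches come from GENCODE vM21 exons and transcripts, promoters from RefSeq.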

Additional observations from a re-analysis of the deposited data

Results flagged for a closer look

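Within groups of 4 to 10 hearts, 6 values among 72 groups of 18 named carriers stood apart from the rest by Dixon's test, and chance flags about 1 group in 20. Slc25a46 was at 132 CPM in PBS_REV-ERBa replicate 3, the lowest, with the next heart at 143 CPM. Slc25a35 was at 11.97 CPM in C26_GFP replicate 6, the highest, with the next at 8.54 CPM. PBS_GFP replicate 3 was lowest for Slc25a23, at 76.6 against 85.8 CPM, and for Slc25a1, at 5.16 against 6.69 CPM. C26_REV-ERBa replicate 9 was highest for the citrate carrier Slc25a1, at 17.3 against 10.8 CPM, and lowest for Slc25a11, at 406 against 471 CPM. That heart also had the lowest Slc25a13 and the highest Slc25a28 of its group, and it is 1 of the 4 in its group with high atrial markers. Its summed white adipocyte markers were at 329 CPM (next heart of the group 15.4) and its neutrophil markers at 14.2 CPM (next 3.90). Ucp1, an untested family member and a brown adipocyte marker, was at 13.4 CPM in this heart, with a group median of 0. The summed brown adipocyte markers of this heart were the lowest of its group, at 137 CPM. In this group that sum was mainly Ucp3, the muscle form (mean 181 CPM), and Cox8b (mean 75.6 CPM). The cardiomyocyte markers of this heart were the lowest of the group, at 34955 CPM. The part of these in its carrier levels was not tested.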

How the results depend on the processing

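No result changed direction under any alternative run. For the tumour effect in GFP mice, 13 carriers passed, 7 without the libraries above 10000000 counts, and between 9 and 16 with 1 heart left out; the genes called overall went from 3642 to 1972 without those libraries. For REV-ERBα against GFP with a tumour, 7 passed, 1 in a fit of only the groups compared, and between 1 and 9 with 1 heart left out; all genes called went from 931 to 327 in that fit and to 1772 with voom. For the tumour against saline with the REV-ERBα vector, 2 passed, 1 without the hearts with high atrial markers, and 1 or 2 with 1 heart left out (935 genes called in all, 416 without those hearts). For the REV-ERBα effect in tumour-free mice and the interaction 0 passed with any 1 heart left out. Fits without libraries have fewer samples; otherwise the cause was not tested. The replicate numbers are only numbers, since each animal has its own: deviations of same-numbered hearts had a mean correlation of −0.03 over 32 pairs, and 4 of 29 hearts correlated best with their own number. With the replicate block, 4 carriers passed for REV-ERBα against GFP with a tumour (291 genes in all) and 1 for the tumour against saline with the REV-ERBα vector (450 genes). The Slc25a5 count is limited by shared sequence, and members under 1 CPM by depth.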
